A study of Mus musculus with 10 samples.

Results

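The genes described here are those of the pentose phosphate pathway together with other enzymes that make NADPH: *G6pdx*, *Pgls*, *Pgd*, *Rpia*, *Rpe*, *Taldo1*, *Tkt*, *Me1*, *Idh1* and *Mthfd2*. They were chosen by name for their place in metabolism, with earlier results of these data known. They were found in the count table through their Ensembl identifiers. They are 10 of the 43432 genes listed, and all 10 were among the 14172 genes with enough counts to be tested. RNA was sequenced from the mouse macrophage line RAW264.7 to ask how the transcriptome under lipopolysaccharide (LPS) changes with compound **1**, which is 9-keto-hexadec-7-enoic acid in its 7(*E*) form. There were 5 groups of 2 libraries each. The DMSO group had the solvent (0.5% DMSO) and no LPS, and the DMSO + LPS group had the same solvent with LPS at 1 µg/mL. The remaining groups had **1** at 32, 10 or 3.2 µM, added 1 h before LPS at the same 1 µg/mL, and RNA was taken after 12 h. No group had **1** without LPS, and all libraries came from 1 cell line.

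The pentose phosphate pathway draws glucose 6-phosphate away from glycolysis. Its oxidative branch reduces NADP+ to NADPH and ends in ribulose 5-phosphate, and its non-oxidative branch interconverts sugar phosphates, which gives ribose for nucleotides or returns carbon to glycolysis. Macrophages spend NADPH on the oxidative burst, on nitric oxide synthesis and on regenerating glutathione and thioredoxin. In other cells, *G6pdx*, *Pgd*, *Taldo1*, *Tkt*, *Me1* and *Idh1* are known among the genes that the transcription factor Nrf2 activates through the antioxidant response element (ARE).

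The start regions of *Taldo1*, *Pgd* and *Me1*, the members that rose at 32 µM, are shown with that of *G6pdx*, which opens the pathway. They are from RefSeq (GRCm38.p6), each 5′ to 3′ on the strand of the gene and ending at the base before the start site, except that of *Me1*, which runs 3 bases past it. Capitals mark the core of the ARE, spelled TGACNNNGC and searched on both strands.
Taldo1, chr7:141392040-141392159, plus strand: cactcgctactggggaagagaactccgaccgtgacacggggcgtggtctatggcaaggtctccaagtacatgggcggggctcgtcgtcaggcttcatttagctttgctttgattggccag
Pgd, chr4:149166706-149166825, minus strand: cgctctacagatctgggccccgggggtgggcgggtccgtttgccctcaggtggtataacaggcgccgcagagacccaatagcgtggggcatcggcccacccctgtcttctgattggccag
Me1, chr9:86695912-86696034, minus strand: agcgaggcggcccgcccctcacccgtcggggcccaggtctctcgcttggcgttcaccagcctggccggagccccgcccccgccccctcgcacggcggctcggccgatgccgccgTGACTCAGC
G6pdx, chrX:74428881-74429000, minus strand: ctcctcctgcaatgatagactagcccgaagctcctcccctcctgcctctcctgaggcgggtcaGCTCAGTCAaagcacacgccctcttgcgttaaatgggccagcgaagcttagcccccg
RefSeq gave 13 start sites for the 10 genes, and the search covered 300 bases around each. The core was present in 3 of the 13 windows, against 12.4% of all 32851 windows of that length. In *G6pdx* it lay on the opposite strand at position -57 from the start site, and in *Me1* at -6, across the start site. The match in *Me1* also spells TGACTCA, the letters of an AP-1 site. The third match, TGACATTGC, lay at position 4 of a second *Pgd* start site, chr4:149166033-149166332. The window of *Taldo1* held none of these letters, which says nothing about sites elsewhere. A site for ATF4, spelled TGATGNAA, was in 0 of the 13 windows and in 3.97% of all windows.

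Library totals lay between 45966803 and 58976377 counts, and the members held between 1116 counts (*Rpia*) and 87653 counts (*Pgd*) in a library, so that the counting error was at most 2.99%. Levels are given as CPM, counts scaled to the library total, here after TMM scaling. Summed CPM of 8 macrophage markers, all tested, ran from 8105 to 11958, and that of 3 T cell and 3 B cell markers stayed at or below 0.354. Of 3 neutrophil markers 1 was tested, *S100a8*, which was higher with LPS (log2 fold change 2.98, adjusted p = 4.4e-04) and lower at 32 µM than in DMSO + LPS (-1.74, adjusted p = 0.026), with the 3 markers summing to at most 7.23 CPM. Summed CPM of 3 fibroblast markers was 2.94 in replicate 1 at 10 µM and at most 0.367 elsewhere. The part of either list in the members' values was not tested. Epithelial markers set 2 libraries apart. *Krt8*, *Epcam* and *Krt18* held 1039, 451 and 87 counts in replicate 1 at 10 µM, and 153, 78 and 12 counts in replicate 1 at 3.2 µM, against 0 to 2 counts in each of the other 8 libraries. A further look at these libraries, made after their values were seen, found 109 genes with at least 50 counts in replicate 1 at 10 µM and at most 5 in each of those 8. These genes summed to 0.0352% of its counts and to 0.00474% of those of replicate 1 at 3.2 µM. They were not all epithelial. In replicate 1 at 10 µM the immunoglobulin genes *Igha* and *Igkc* held 260 and 141 counts, the smooth muscle gene *Actg2* 350 and the collagen gene *Col3a1* 160. Both libraries are called epithelial below after the 3 markers only. In replicate 2 at 32 µM, *Gm42418*, which overlaps a ribosomal RNA repeat, took 2.46% of the counts, against 0.0419% to 0.207% elsewhere. The values of *Taldo1* and *Pgd* at 10 and 3.2 µM are also given without the epithelial libraries below.

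Per kilobase of annotated exon, *Taldo1* and *Pgd* had the most abundant transcripts of the 10 genes and *Rpia* the least. Averaged over the 10 libraries, the levels were 256 CPM per kb for *Taldo1*, 204 for *Pgd*, 166 for *G6pdx* and 103 for *Idh1*. *Tkt* followed at 53.5, *Mthfd2* at 40.9 and *Me1* at 29.3 CPM per kb. *Rpe* stood at 15.3, *Pgls* at 14.0 and *Rpia* at 6.21 CPM per kb. *Rpe* and *Pgls* changed places when the length of the longest transcript was used, so their order is not settled. In DMSO + LPS, the levels of *Tkt* (47.0 ± 1.72 CPM per kb, SD, n = 2) and *Mthfd2* (43.2 ± 0.641) were close, whereas in DMSO they were 62.5 ± 0.487 and 23.7 ± 0.345.

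**Figure D1:**
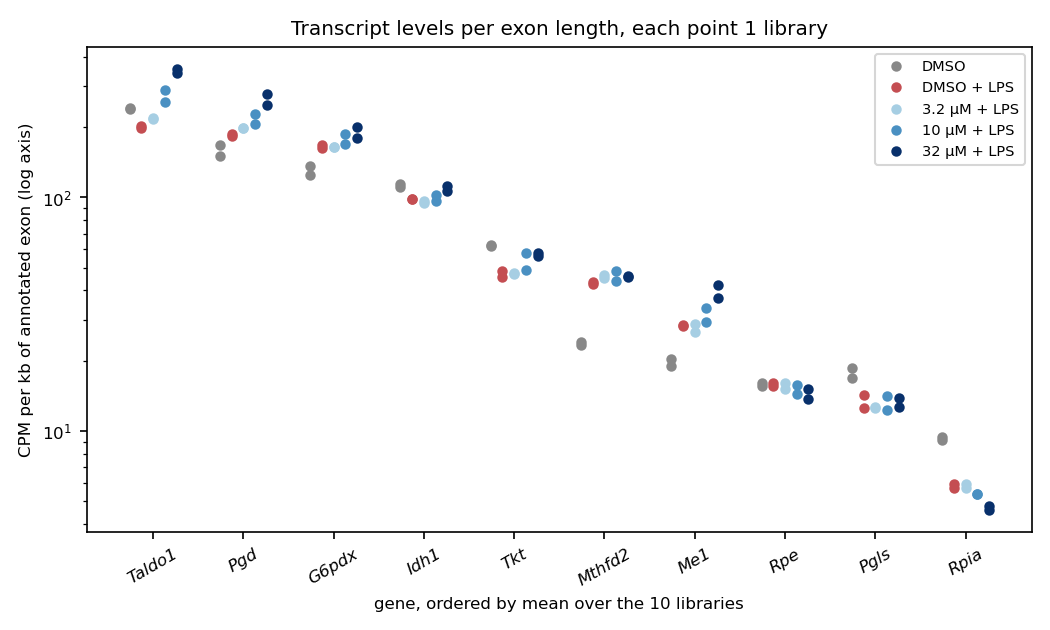
Level of each member per kilobase of annotated exon. The vertical axis is CPM per kb on a log scale, the genes are ordered by their mean over the 10 libraries, and each point is 1 library, colored by group. *Taldo1* reaches 354 CPM per kb at 32 µM, and *Rpia* lies lowest at every condition, between 4.61 and 9.47.

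The first comparison, DMSO + LPS against DMSO, asks what LPS alone did to these transcripts. Of the 10 members, 4 were higher and 5 lower, while *Rpe* did not pass. A gene passes when the Benjamini-Hochberg adjusted p of edgeR's quasi-likelihood test is below 0.05 over all 14172 genes. LPS moved much of the transcriptome by this measure, with 25.2% of all genes higher and 25.8% lower, and the members' median log2 fold change was -0.093 against 0.0026 for all genes. At the further requirement of a 1.5-fold change, *Mthfd2* was called higher and *Rpia* lower, against 14.6% and 13.6% of all genes. Fewer cells of a kind and less RNA per cell cannot be told apart in bulk RNA. The labels call the replicates biological and say no more. Each p sets a difference between groups against the spread between these libraries within groups. An exact permutation test of 2 libraries against 2 has 0.333 as its smallest p-value, and the tests therefore rest on the spread shared over groups and genes.

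In the oxidative branch, both dehydrogenases were higher with LPS and the enzyme between them was lower. *G6pdx* (chrX:74409483-74429194), the glucose-6-phosphate dehydrogenase that commits glucose to the pathway, stood at 420 and 385 CPM in DMSO and at 517 and 502 CPM in DMSO + LPS. The groups did not overlap, and the log2 fold change was 0.34 ± 0.070 (SE, n = 2 per group here and below, adjusted p = 0.0042). *Pgd* (chr4:149149991-149166771), which oxidizes 6-phosphogluconate and makes the second NADPH of the branch, stood at 1076 and 966 CPM in DMSO and at 1179 and 1203 CPM in DMSO + LPS. Its groups did not overlap either, and the log2 fold change was 0.22 ± 0.075 (adjusted p = 0.038). *Pgls*, the lactonase between them, stood at 69.9 and 63.4 CPM in DMSO and fell to 47.4 and 54.1 CPM in DMSO + LPS, by -0.39 ± 0.094 on the log2 scale (adjusted p = 0.0084). The results for *G6pdx* and *Pgd* depended on the scaling. With library size alone the median of all genes shifted to -0.20, and the log2 fold changes of 0.13 for *G6pdx* and 0.015 for *Pgd* no longer passed (adjusted p = 0.175 and 0.893), though both remained above that median. *Pgd* also failed to pass without DMSO replicate 2 (0.13, adjusted p = 0.278), without DMSO + LPS replicate 1 (0.24, adjusted p = 0.105) and without DMSO + LPS replicate 2 (0.21, adjusted p = 0.153). The same held for it by the likelihood ratio test (0.22, adjusted p = 0.0961) and without both epithelial libraries (0.22, adjusted p = 0.0540). *Pgls* failed to pass without DMSO replicate 1 (-0.32, adjusted p = 0.0547) and without DMSO + LPS replicate 1 (-0.30, adjusted p = 0.0672).

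In the non-oxidative branch, 3 of the 4 enzymes were lower with LPS. *Rpia* (chr6:70765720-70792232), the isomerase that makes ribose 5-phosphate, held 50.7 and 49.2 CPM in DMSO against 30.6 and 31.9 CPM in DMSO + LPS. These groups lay far apart relative to their spread, and LPS shifted the log2 level by -0.68 ± 0.052 (adjusted p = 1.5e-05). *Tkt*, the transketolase, which moves carbon units between sugar phosphates, went from 457 and 462 CPM to 337 and 355 CPM (-0.41 ± 0.073, adjusted p = 0.0019). *Taldo1* (chr7:141392199-141402968), the transaldolase, its partner in the same exchange, went from 524 and 521 CPM to 429 and 438 CPM (-0.27 ± 0.058, adjusted p = 0.0051). In both genes the libraries with LPS lay below those without. *Rpe*, the epimerase that makes xylulose 5-phosphate, overlapped between the groups, at 48.4 and 49.9 CPM in DMSO and 50.3 and 48.5 CPM in DMSO + LPS (0.0075, 95% interval from -0.15 to 0.17), a value that turned to -0.20 and passed as lower when scaled by library size alone (adjusted p = 0.0350), near that scaling's median of all genes.

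Outside the pathway, *Mthfd2* and *Me1* were higher with LPS and *Idh1* was lower. *Mthfd2*, a mitochondrial folate dehydrogenase that can use NADP+ besides NAD+, went from 83.5 and 81.8 CPM to 152 and 149 CPM. This was the largest rise among the members, at 0.86 ± 0.054 on the log2 scale (adjusted p = 4.3e-06). *Me1* (chr9:86581371-86695953), the cytosolic malic enzyme that turns malate into pyruvate and makes NADPH, went from 73.4 and 78.2 CPM to 109.7 and 109 CPM (0.53 ± 0.085, adjusted p = 0.0011). *Idh1*, the cytosolic NADP+-dependent isocitrate dehydrogenase, went from 308 and 316 CPM to 274 and 272 CPM (-0.19 ± 0.048, adjusted p = 0.010). *Idh1* did not pass without DMSO + LPS replicate 1 (-0.20, adjusted p = 0.0537) or replicate 2 (-0.19, adjusted p = 0.0625), or by the likelihood ratio test (-0.19, adjusted p = 0.0583).

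**Figure D2:**
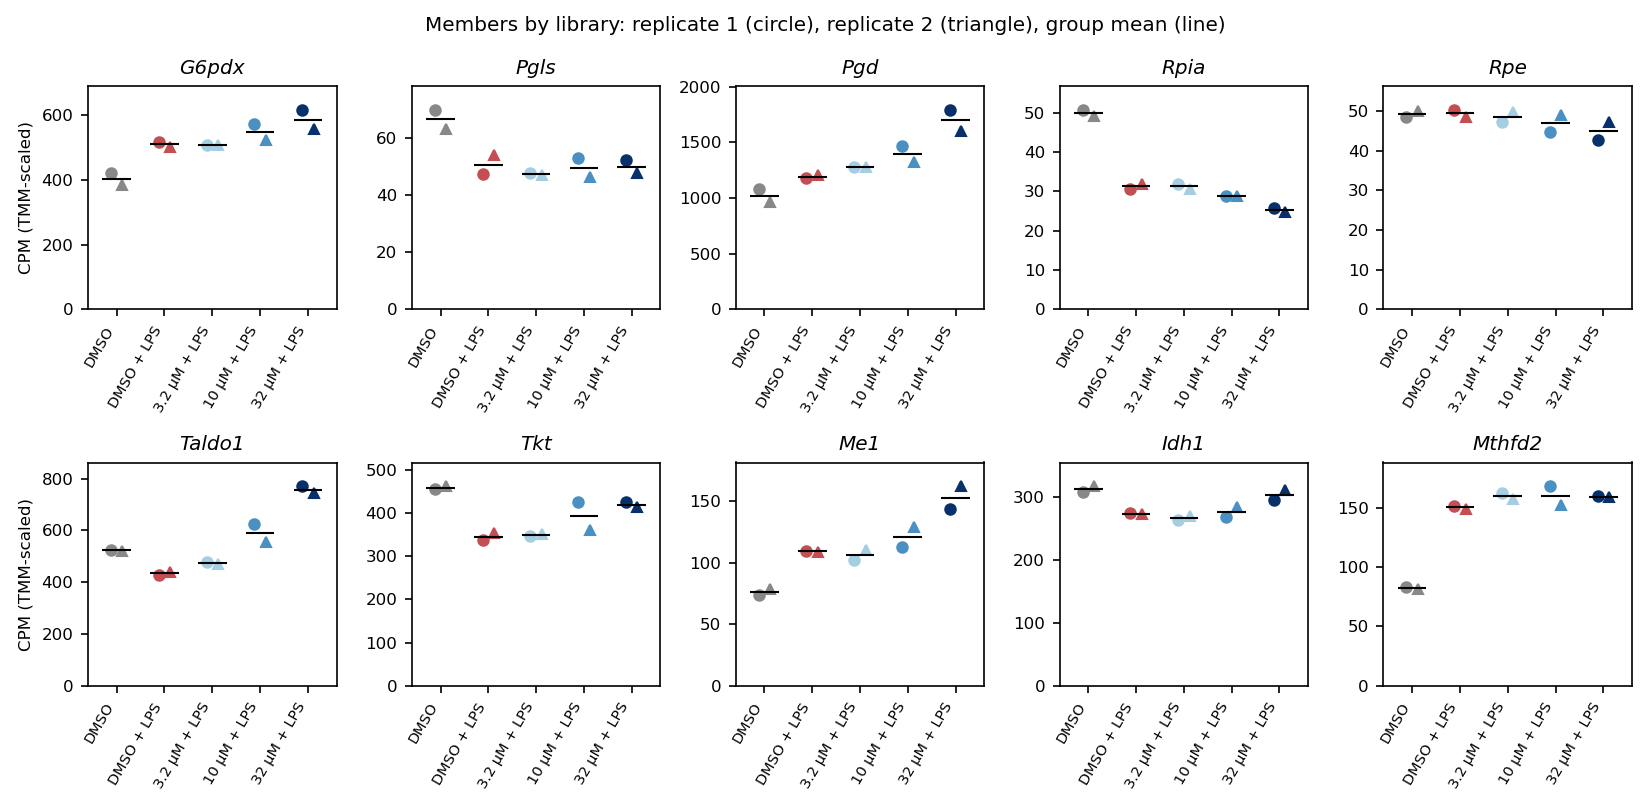
CPM of each member in every library. Circles are replicate 1, triangles replicate 2, lines the group means of 2 libraries, and each panel has its own vertical axis starting at 0. *Taldo1* falls with LPS and lies above its level in DMSO in both libraries at 32 µM, while *Rpia* falls with LPS and lies lowest at 32 µM.

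The next comparison sets **1** at 32 µM with LPS against DMSO + LPS. Of the 10 members, *Taldo1*, *Pgd* and *Me1* were higher, *Rpia* was lower and 6 did not pass. Of all genes tested, 4.06% were higher and 5.72% lower. With the 1.5-fold requirement *Taldo1* was called higher and 0 members lower, against 1.27% and 2.91% of all genes. The members' median log2 fold change was 0.18 and that of all genes 0.0082. The 4 genes that moved were thus 1 of the 3 oxidative branch enzymes, 2 of the 4 non-oxidative enzymes, in opposite directions, and 1 of the 3 other dehydrogenases.

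*Taldo1* stood at 769.5 and 744 CPM in the libraries at 32 µM, against 429 and 438 CPM in DMSO + LPS. Both libraries at 32 µM were also above the 524 and 521 CPM of DMSO. The log2 fold change against DMSO + LPS was 0.80 ± 0.058 (1.75-fold, adjusted p = 9.2e-05), and it lay between 0.78 and 0.83 over all 14 alternative settings and left-out libraries, with an adjusted p of at most 0.0023.

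*Pgd* reached 1791 and 1602 CPM at 32 µM, above the 1179 and 1203 CPM of DMSO + LPS. This was a rise of 0.51 ± 0.075 on the log2 scale (1.42-fold, adjusted p = 0.0038), which passed in all 14 alternatives, with values from 0.43 to 0.59. *G6pdx*, with 617 and 556 CPM at 32 µM against 517 and 502 CPM, had both libraries above those of DMSO + LPS. Its log2 fold change of 0.20 (95% interval from 0.040 to 0.36) did not pass (adjusted p = 0.131). It passed with the replicate block (0.20, adjusted p = 0.0432) and with the short-transcript score (0.23, adjusted p = 3.2e-04), and was 0.13 without replicate 1 at 32 µM (adjusted p = 0.409). *Pgls* overlapped, at 52.3 and 47.7 CPM against 47.4 and 54.1 CPM, with a log2 fold change of -0.020 (95% interval from -0.24 to 0.20).

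*Rpia* held 25.7 and 24.7 CPM at 32 µM, below the 30.6 and 31.9 CPM of DMSO + LPS, and was lowest of all groups there. The log2 fold change was -0.31 ± 0.053 (0.807-fold, adjusted p = 0.0079). It did not pass without DMSO + LPS replicate 2 (-0.28, adjusted p = 0.0777), without replicate 2 at 32 µM (-0.28, adjusted p = 0.0641), the library rich in *Gm42418*, or when only the 4 libraries compared were fitted (-0.32, adjusted p = 0.0585). *Tkt*, at 426 and 414 CPM against 337 and 355 CPM, had both libraries at 32 µM above those of DMSO + LPS and below those of DMSO. Its log2 fold change of 0.28 (95% interval from 0.11 to 0.45) missed the threshold (adjusted p = 0.0528) and passed in 6 of 14 alternatives. *Rpe* was 42.7 and 47.1 CPM against 50.3 and 48.5 CPM, a log2 fold change of -0.14 (95% interval from -0.30 to 0.025). It did not pass (adjusted p = 0.311), but did with the short-transcript score (adjusted p = 0.021).

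*Me1* stood at 143 and 162 CPM at 32 µM, above the 109.7 and 109 CPM of DMSO + LPS. The log2 fold change was 0.48 ± 0.085 (1.4-fold, adjusted p = 0.0092). It did not pass without DMSO + LPS replicate 1 (0.49, adjusted p = 0.0782) or replicate 2 (0.48, adjusted p = 0.0831), or without replicate 2 at 32 µM (0.39, adjusted p = 0.0665). *Idh1* was 295 and 310.5 CPM against 274 and 272 CPM, with a log2 fold change of 0.15 (95% interval from 0.039 to 0.26) that did not pass (adjusted p = 0.103). It passed with the short-transcript score (adjusted p = 0.0047). *Mthfd2* was 160.3 and 159 CPM against 152 and 149 CPM, and its log2 fold change was 0.085 (95% interval from -0.039 to 0.21).

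**Figure D3:**
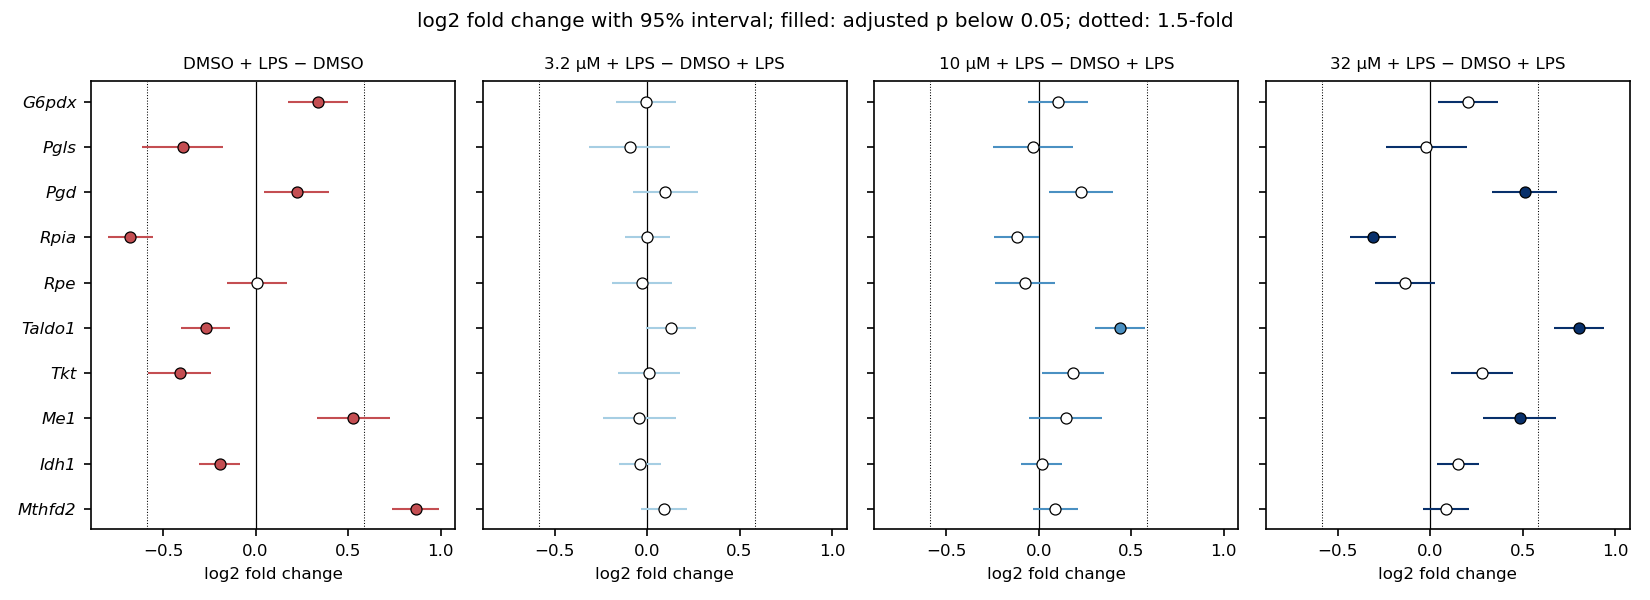
log2 fold change of each member in 4 comparisons. The horizontal axis is the log2 fold change, bars are 95% intervals from the edgeR fit, filled points have an adjusted p below 0.05 and dotted lines mark a 1.5-fold change. *Taldo1* goes from -0.27 with LPS to 0.13, 0.44 and 0.80 against DMSO + LPS at 3.2, 10 and 32 µM.

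At 10 µM, *Taldo1* was the 1 member that passed. Of all genes, 0.967% were higher and 1.7% lower, and with the 1.5-fold requirement, which 0 members met, 0.282% were higher and 0.579% lower. *Taldo1* stood at 623 and 553 CPM, above the 429 and 438 CPM of DMSO + LPS, which is 0.44 ± 0.058 on the log2 scale (1.36-fold, adjusted p = 0.0079). Replicate 1 is the library with the most epithelial RNA. Without it the value was 0.35 (adjusted p = 0.0203), and without both epithelial libraries it was also 0.35 (adjusted p = 0.101). It also did not pass without DMSO + LPS replicate 1 (0.42, adjusted p = 0.0975) or replicate 2 (0.45, adjusted p = 0.0777), or when only the 4 libraries were fitted (0.44, adjusted p = 0.146). *Pgd*, at 1464 and 1327 CPM, had a log2 fold change of 0.23 (95% interval from 0.055 to 0.40, adjusted p = 0.239). This was 0.16 without replicate 1 at 10 µM or without both epithelial libraries, and passed with the short-transcript score (adjusted p = 1.6e-04). *Tkt* was 425 and 362 CPM, and its log2 fold change of 0.19 became 0.064 without both epithelial libraries. It passed with the short-transcript score (adjusted p = 0.0490). The part of the epithelial RNA in these values was not tested further. The log2 fold changes of the other 7 members lay between -0.12 (*Rpia*) and 0.15 (*Me1*). *Me1* differed between the replicates, at 113 and 129 CPM, and its log2 fold change was 0.24 without replicate 1 or without both epithelial libraries, 0.021 without replicate 2, and 0.16 with the short-transcript score, where it passed (adjusted p = 0.021).

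At 3.2 µM, 0 members passed in edgeR's quasi-likelihood test, and 0% of all genes were higher and 0% lower. At an unadjusted p below 0.05 there were 0 members and 600 of all genes, and DESeq2's Wald test and edgeR's likelihood ratio test also gave 0 members. The number of all genes passing varied more, with 14 higher and 12 lower by DESeq2, 4 and 4 by the likelihood ratio test, 75 and 53 with the short-transcript score, and 328 and 159 when only the 4 libraries were fitted. *Taldo1* was 477 and 470.4 CPM, a change of 0.13 against DMSO + LPS on the log2 scale (95% interval from -0.0060 to 0.26). *Pgd* was 1277 and 1275 CPM, with a log2 fold change of 0.099 (95% interval from -0.074 to 0.27). Without both epithelial libraries these values were 0.12 and 0.099. The other 8 log2 fold changes lay between -0.095 (*Pgls*) and 0.091 (*Mthfd2*). In counts simulated for 32 µM against DMSO + LPS, the same steps found 12 of 50 genes changed 1.3-fold and 36 of 50 changed 1.5-fold. No such simulation was made for 3.2 µM.

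Between 32 and 10 µM, 1 member differed. *Taldo1* was higher at 32 µM by 0.36 ± 0.058 on the log2 scale (adjusted p = 0.016), where 0.804% of all genes were higher and 1.95% lower. The difference was 0.45 (adjusted p = 0.0045) without the 10 µM library with epithelial RNA, and it did not pass without replicate 1 (0.34, adjusted p = 0.0964) or replicate 2 at 32 µM (0.39, adjusted p = 0.0655), when only the 4 libraries were fitted (0.37, adjusted p = 0.396), or without either library at 3.2 µM, where 0 members passed. *Me1* (0.34, 95% interval from 0.14 to 0.53, adjusted p = 0.109) and *Pgd* (0.28, 95% interval from 0.11 to 0.46, adjusted p = 0.131) did not pass. With the replicate number as a block both passed (0.34, adjusted p = 0.0187, and 0.28, adjusted p = 0.0487), and *Me1* passed in 6 of 14 alternatives. Without both epithelial libraries *Me1* was 0.24 and *Pgd* 0.35.

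All comparisons but the last share the DMSO + LPS libraries, so their values are set side by side and not correlated. *Pgd* and *Me1* were higher with LPS (0.22 and 0.53) and higher again at 32 µM (0.51 and 0.48). *Rpia* was lower with LPS (-0.68) and lower again at 32 µM (-0.31). *Taldo1* was lower with LPS (-0.27) and higher at 32 µM (0.80). *Mthfd2* was higher with LPS (0.86), with 0.085 at 32 µM.

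The 10 genes together summed to 3112 and 2973 CPM in the DMSO libraries and to 3125 and 3163 CPM in those of DMSO + LPS. With **1** the sums were 3262 and 3268 CPM for 3.2 µM, 3761 and 3455 CPM for 10 µM, and 4323 and 4067 CPM for 32 µM, where they lay above every other library. *Pgd* and *Taldo1* make up much of this sum. Without *Taldo1* it was 2696 and 2725 in DMSO + LPS and 3553 and 3323 at 32 µM. Summed macrophage markers were 10382 and 10501 CPM in DMSO + LPS and lower, 8492 and 8105 CPM, in the libraries at 32 µM, with 1 of 8 higher and 4 lower at 32 µM. Mean CPM of *Lyz2* went from 4127 to 2707 and that of *Cd14* from 3311 to 2549, and *Itgam* and *Adgre1* were also lower. *Csf1r* went up from 814 to 1071, while *Ptprc*, *Cd68* and *Spi1* did not pass. The part of these markers in the members' values was not tested.

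Lists of related genes, also chosen with earlier results of these data known, were counted in the same way. Of 11 other enzymes that make NADPH, 9 were tested, and at 32 µM 1 was higher and 1 lower, against 4.06% and 5.72% of all genes. *H6pd*, the hexose-6-phosphate dehydrogenase of the endoplasmic reticulum, rose by 0.60 ± 0.052 on the log2 scale (adjusted p = 2.2e-04), and *Aldh1l2*, a mitochondrial folate dehydrogenase, had -0.34 ± 0.072 (adjusted p = 0.023). *H6pd* also passed at 10 µM (0.28, adjusted p = 0.031) and was lower with LPS (-0.40, adjusted p = 3.1e-04). With LPS alone, 1 of the 9 was higher and 6 were lower, against 25.2% and 25.8% of all genes. *G6pd2*, a near-identical copy of *G6pdx*, held 0 to 8 counts in a library, and *Me3* 0 to 3, so neither was tested. How reads shared by *G6pdx* and *G6pd2* were counted is not given in the sources used here.

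Neither NAD kinase, the enzymes that make NADP+, passed at 32 µM. With LPS, *Nadk* had a log2 fold change of 1.03 and the mitochondrial *Nadk2* one of -0.73, both named after their values were seen. Of the 7 side enzymes tested, which feed or drain the pentose phosphates, 0 were higher and 1 was lower at 32 µM, against 4.06% and 5.72% of all genes. The lower gene was *Dera* (-0.23 ± 0.058, adjusted p = 0.044), which splits deoxyribose phosphate. With LPS 1 of the 7 was higher and 3 were lower, against 25.2% and 25.8% of all genes. Of the 2 transketolase-like genes, *Tktl1* held 1 to 6 counts and *Tktl2* 0 counts in every library. Of 11 serine and folate enzymes, 1 was higher and 2 were lower at 32 µM, against the same 4.06% and 5.72%. The higher gene was *Phgdh*, the entry to serine synthesis, by 0.28 ± 0.057 on the log2 scale (adjusted p = 0.018).

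Of 10 reductases that use NADPH, 7 were higher and 0 lower at 32 µM, against 4.06% and 5.72% of all genes. At 10 µM 3 were higher, against 0.967% of all genes. The median of the reductases at 32 µM was 0.50 on the log2 scale. The largest were *Nqo1* (2.63), the quinone reductase, *Akr1b8* (1.17), an aldo-keto reductase, *Blvrb* (0.95), biliverdin reductase B, and *Cbr3* (0.85), a carbonyl reductase. Of 11 established Nrf2 target genes, 3 of which are also in the list of reductases, 10 were higher and 0 lower at 32 µM and 5 were higher at 10 µM. After *Nqo1*, their largest values were those of *Osgin1* (1.35), *Prdx1* (1.00) and *Gclc* (0.98). The median of these targets was 0.77, against 0.18 for the 10 members. With LPS alone 6 of the 10 reductases were higher and 1 lower, and 10 of the 11 Nrf2 targets were higher and 1 lower. Of all genes, 25.2% were higher and 25.8% lower with LPS. At 3.2 µM 0 genes of these 6 lists passed, and 0% of all genes.

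**Figure D4:**
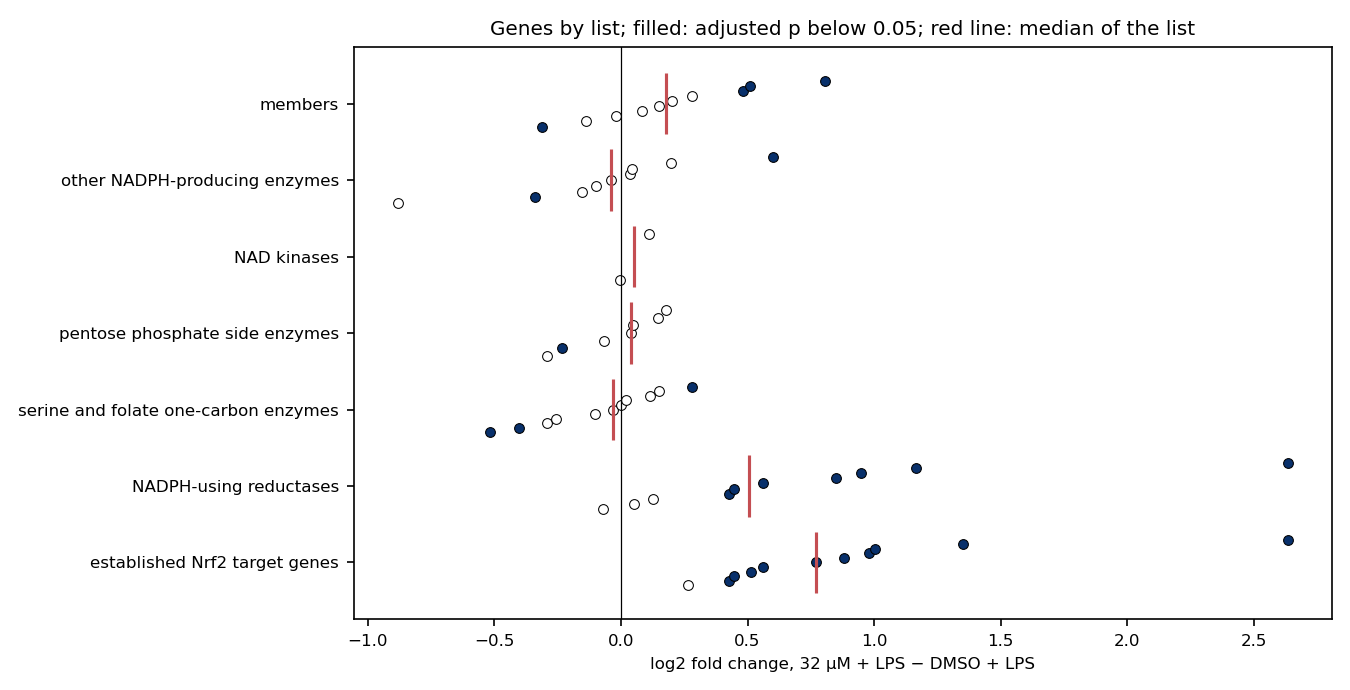
log2 fold change at 32 µM for the members and 6 lists of related genes. The horizontal axis is the log2 fold change of 32 µM + LPS against DMSO + LPS, each point is 1 tested gene, filled points have an adjusted p below 0.05 and red lines are list medians. The NADPH-using reductases and the Nrf2 targets lie mostly to the right, and the other NADPH-producing enzymes have a median of -0.038.

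As a description of the patterns over the 10 libraries, the genes most like each member were ranked by Pearson's r of log2 CPM among 9562 genes with a mean of at least 5 CPM. Libraries of 1 group share their treatment, so these values mostly compare 5 group means. *Taldo1* was most like *Plin2* (r = 0.979), *Cd300a* (0.979) and *Creg1* (0.975). *Pgd* was most like *Pf4* (0.989), *Galnt6* (0.979) and *Cyb5a* (0.978), and *G6pdx* most like *Pced1b* (0.987), *Akr1a1* (0.986) and *Prr13* (0.985). For *Me1* the nearest were *Fam83h* (0.994), *Dnajb4* (0.991) and *Gbe1* (0.991), and for *Rpia* they were *Mvd* (0.998), *Atg9b* (0.995) and *Ccne1* (0.995). *Mthfd2* was nearest to *Eif1* (0.998) and *Stx5a* (0.997), and *Tkt* to *Arhgap27* (0.992), *Tubb5* (0.974) and *Cyb561* (0.967). *Idh1* was nearest to *Tshz1* (0.988), *Exoc8* (0.984) and *Slc9a5* (0.978), *Pgls* to *Uap1l1* (0.978), *March2* (0.978) and *Fam53a* (0.977), and *Rpe* to *Sgk3* (0.939), *Fmr1* (0.931) and *Vcpip1* (0.910).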

How the data were processed

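The authors deposited raw counts, whole numbers per mouse Ensembl gene with 1 column per library and no normalization. The submitters' processing notes name FastQC, Trimmomatic, STAR, DESeq2 and the mm10 build. The counting tool, the annotation and the use of strand are not given in the sources used here. Per the study's methods the libraries were stranded and made from poly(A) RNA.

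Symbols, positions and exon lengths came from GENCODE M21 (GRCm38, the same assembly as mm10), and start regions from RefSeq (GRCm38.p6). In R 4.3.3, genes kept by filterByExpr (minimum count of 10) were scaled by TMM and fitted in edgeR 4.0.16 with 1 mean per group over all 10 libraries, which left 5 residual degrees of freedom. Quasi-likelihood F tests were adjusted by the Benjamini-Hochberg method over 14172 genes. A gene passes at an adjusted p below 0.05 and is called when it also changed at least 1.5-fold, the fold of the study's methods. Standard errors and 95% intervals come from the same fit.

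The members and lists were chosen with earlier results of these data known, and no list has a test of its own. Genes named are the 10 members, up to 4 passing genes with the largest change at 32 µM from each list, and the 3 genes most like each member. Others are marked where they appear. A few genes that this rule would name are not reported here. Alternatives were scaling by DESeq2 size factors or by library size alone, keeping every gene with a count or only those averaging 5 CPM or more, DESeq2 1.42.0, the likelihood ratio test, the 4 libraries compared, the replicate block, a short-transcript score (the median log2 CPM of 349 genes with transcripts under 1000 nt, relative to the other libraries) and each library left out, where the lone library of a group is assumed to vary like the others. Leaving out both epithelial libraries was added after seeing the data. The steps were tested on simulated data.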

Additional observations from a re-analysis of the deposited data

How the results depend on the processing

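Over 700 alternative values of the members, 612 kept their direction and their side of the threshold, 25 no longer passed, 24 newly passed and 39 changed sign. The number of members passing was 9 with LPS, 4 at 32 µM, 1 at 10 µM, 0 at 3.2 µM and 1 between 32 and 10 µM. Of all genes, 50.9%, 9.78%, 2.67%, 0% and 2.76% passed in these comparisons. With the replicate block 9, 6, 1, 0 and 3 members passed, and 54.4%, 11.3%, 3.34%, 0% and 3.30% of all genes. The labels do not say that replicate numbers pair the samples, and the main fit did not pair them. The correlations of replicate differences over the 10 pairs of groups ran from -0.17 to 0.57 and were over 0.1 in 6. The highest were 0.57 (3.2 and 10 µM), 0.53 (DMSO and 32 µM), 0.44 (10 and 32 µM) and 0.42 (DMSO and 10 µM). Every pair with DMSO + LPS was negative. The short-transcript scores of replicates 1 and 2 were 0.028 and -0.49 in DMSO and -0.030 and 0.099 in DMSO + LPS. At 32 µM they were 0.16 and -0.30, at 10 µM 0.31 and -0.13, and at 3.2 µM 0.22 and 0.15. With the block *G6pdx* (adjusted p = 0.0432) and *Tkt* (0.0480) passed at 32 µM, and *Pgd* and *Me1* between 32 and 10 µM. With the short-transcript score 8 members passed at 32 µM, 4 at 10 µM and 5 between 32 and 10 µM. The share of all genes passing also rose with it, from 9.78% to 23.6% at 32 µM, from 2.67% to 10.7% at 10 µM and from 2.76% to 8.93% between 32 and 10 µM. Between 32 and 10 µM, 2 passed without a count filter, 3 by DESeq2, 2 by the likelihood ratio test and 0 in the 4-library fit, where 1.90%, 2.28%, 3.27% and 0.0374% of all genes passed, against 2.76%. With LPS, 7 passed by the likelihood ratio test, where 49.5% of all genes passed, against 50.9%. At 10 µM, 0 passed in the 4-library fit and 0 without both epithelial libraries, where 0.307% and 0.332% of all genes passed, against 2.67%. Leaving out 1 library gave 6 to 9 members with LPS, 2 to 5 at 32 µM, 0 to 1 at 10 µM, 0 at 3.2 µM and 0 to 2 between 32 and 10 µM. The share of all genes passing then ran from 37.8% to 52.4% with LPS, 4.76% to 10.6% at 32 µM, 0.551% to 2.63% at 10 µM and 1.27% to 2.66% between 32 and 10 µM. The fewest at 32 µM, 2, came without DMSO + LPS replicate 2 or replicate 2 at 32 µM. The cause of these changes was not tested.

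Log2 fold changes that changed sign were as follows. With library size alone, *Rpe* with LPS was -0.20 and *Rpia* at 3.2 µM -0.0061. With the short-transcript score, *Pgls* at 32 µM was 0.017, *Mthfd2* between 32 and 10 µM 0.014, and at 3.2 µM *Rpia* was -0.012, *Rpe* 0.0076, *Tkt* -0.014 and *Me1* 0.0067. Without a count filter, *Idh1* at 10 µM was -0.0048, and at 3.2 µM *Rpia* was -0.012 and *Tkt* -0.0026. *Rpia* at 3.2 µM was -0.0016 with DESeq2 size factors, -0.0024 with a mean of at least 5 CPM and -0.00031 by DESeq2. Without both epithelial libraries, *Mthfd2* between 32 and 10 µM was 0.067, and at 3.2 µM *Rpia* was -0.029, *Rpe* 0.014 and *Me1* 0.014. When 1 of the 4 compared libraries was left out, the values that changed sign in at least 1 case ran as follows. *Rpe* with LPS ran from -0.021 to 0.032, and *Pgls* at 32 µM from -0.11 to 0.077. At 10 µM *Pgls* ran from -0.13 to 0.065 and *Idh1* from -0.049 to 0.057. Between 32 and 10 µM *Pgls* ran from -0.078 to 0.11, *Rpe* from -0.14 to 0.014, *Tkt* from -0.011 to 0.21 and *Mthfd2* from -0.069 to 0.067. At 3.2 µM *G6pdx* ran from -0.026 to 0.015, *Pgls* from -0.19 to 0.0030, *Rpia* from -0.029 to 0.032, *Rpe* from -0.069 to 0.015, *Tkt* from -0.025 to 0.049 and *Me1* from -0.10 to 0.015.

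In counts simulated for 32 µM against DMSO + LPS, 12 of 50 genes changed 1.3-fold passed. All values are transcript levels and say nothing of enzyme activity or NADPH.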
